A study of Homo sapiens with 15 samples.

Results

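Of 134748 transcript clusters with ids starting in TC, 98101 had no gene symbol in the probe annotation, and 7113 of these had a mean log2 signal of at least 8 over all 15 arrays. These 7113 bright unsymbolled clusters are described here. They were selected on the missing symbol and on the mean signal, so their brightness is a consequence of the choice and was not tested. The 8044 clusters with exactly 1 symbol and a mean of at least 8 served as the comparison, and 1119 clusters with several symbols were set aside. Every id in the files ends in the same suffix, which is left out here.

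The RNA came from A549 cells, an established line from a human lung adenocarcinoma, which were kept on membranes with air above and medium below, and it was hybridised to Affymetrix Human Clariom D arrays. Dimethylamine, a volatile amine, was given as vapour in an air flow at a low dose of 14.9 ppm (LD), a middle dose of 41.1 ppm (MD) or a high dose of 81.7 ppm (HD). Clean air control (CA) cells received the flow without dimethylamine, and non-exposed control (NEC) cells received no flow. In LD, MD, HD and CA, 3 exposures of 60 min, each with 23 h of recovery, fell within 72 h. Each group had 3 arrays, and each array carried RNA pooled from 2 wells. The spread behind each p-value is therefore that between pools. All cells were of 1 tumour line, and the model held no other lung or immune cell type by design. The labels place the LD arrays on exposure plate 1, the MD arrays on plate 5 and the HD arrays on plate 6, and they place 1 CA and 1 NEC array on every one of these plates. By the methods, 1 plate has fewer wells for the test substance than the 3 pools of 2 wells of a dose need. By that layout a plate number cannot stand for 1 physical plate, so plate is used here as the label's number. The dose and the plate therefore cannot be told apart between the dose groups, whereas a dose can be set against the control array of its own plate. The spread is that within 1 plate number for each dose and that across plates for CA and NEC. No dose was repeated on another plate number, so the p-values do not cover a repeated exposure across plates.

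A transcript cluster is the unit in which this kind of array reports signal: probes that lie along transcribed sequence of one locus are summarised to a single value. A symbol is attached when the probe annotation used here names a gene for the locus. A missing symbol therefore does not mean that the locus is unannotated. The array also carries probes for loci known only from sequenced cDNA, from predictions or as non-coding and antisense transcripts, and many of these have no symbol. The signal of such a cluster is a measure of RNA that binds its probes, and it does not name the transcript. RNA of very abundant classes, such as ribosomal and mitochondrial RNA, and RNA of repeated sequence can reach probes at more than 1 locus.

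Epithelial markers fitted the line: none of 6 lay below the highest array median of the negative control probe sets, and their mean signals ranged from 7.43 to 17.72. Below that line were 4 of 6 alveolar type 2 markers, 3 of 4 endothelial markers, 1 of 5 fibroblast markers and 1 of 4 leukocyte markers. The part of other cell types in the members' signal was not tested. The array medians over all clusters lay between 4.47 and 4.55, and the number of arrays limits the precision.

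The bright unsymbolled clusters were concentrated near the threshold and at the top of the scale. Their median level was 9.75 (quartiles 8.66 and 11.93), against 10.23 in the bright named clusters. Between 8 and 9 lay 2477 of them (34.8%), against 1992 named ones (24.8%). At 16 or above lay 626 (8.80%), against 343 (4.26%), and at 19 or above 184 (2.59%), against 63 (0.783%). The highest value in the files was 19.93, and 43 members stood at 19.9 or above on all 15 arrays, so a change in these could not be read. All 15 arrays were at 8 or above in 5328 members (74.9%).

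**Figure D1:**
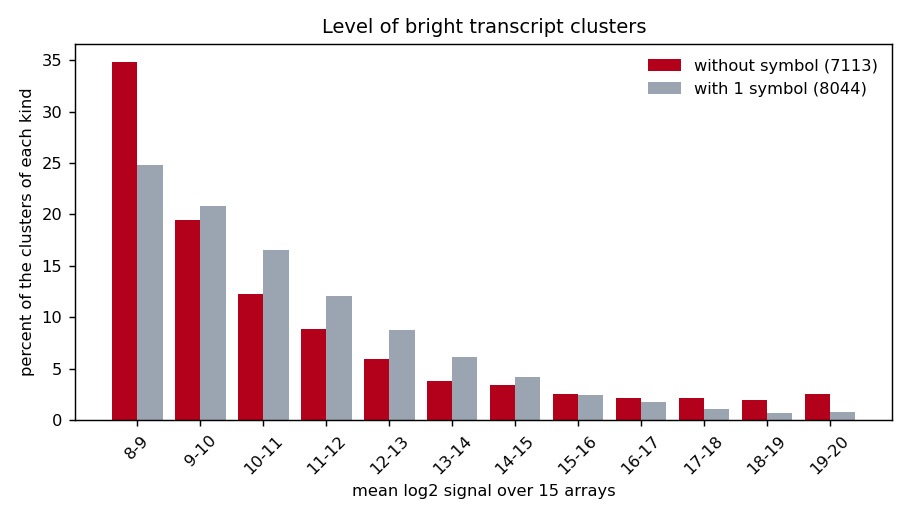
Percent of the bright clusters of each kind (y axis) by mean log2 signal over 15 arrays in bins of 1 unit (x axis), unsymbolled clusters in red and clusters with 1 symbol in grey. The red bars exceed the grey ones in the bin from 8 to 9 (34.8% against 24.8%) and in every bin from 15 upwards, the last holding 2.59% against 0.783%.

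The threshold lay close to the upper edge of the background. The 612 negative control probe sets had array medians between 4.30 and 4.85, and 8 of them (1.31%) had a mean of 8 or more. Background probe sets that are grouped by the number of G and C bases in their probes ran from 2.45, at 15 such bases, to 8.08, at 3 such bases. The base composition of the members' probes was not analysed here. The 5 members just inside the threshold were TC0900007702, TC0800012169, TC0100010027, TC1600006674 and TC0800006777, and the 5 clusters just outside were TC1700008090, TC0100010907, TC1500010142, TC0500012643 and TC0200010208. All 10 had a mean that rounds to 8.0. The ranges of their 5 group means ran from 0.59 to 1.20 inside and from 0.43 to 0.73 outside.

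Replicate arrays of one group scattered alike in both kinds of cluster, with a median within-group SD of 0.31 log2 units in members and 0.31 in the bright named clusters. The range of the 5 group means had a median of 0.48 in members and exceeded 1 log2 unit in 532 (7.48%), against 568 of the named ones (7.06%). The widest range was 2.84, in TC1800006897, followed by that of TC1600008992, TC1900008760, TC0800011882 and TC0100012740. At the other end, TC1300009417 (mean 17.26), TC0600010274 (18.33), TC0400011114 (16.73), TC1000011426 (18.49) and TC1200011997 varied least between groups among the members below 19.

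The first 2 characters after TC in an id give a chromosome code. For named clusters with a position in the human GRCh38 annotation of RefSeq, the code matched the chromosome in 34334 of 34736 (98.8%). The code 01 held the most members, 662 of 7113 (9.31%), which is close to its 8.73% of all unsymbolled clusters. Among the numbered, X and Y codes, the share of unsymbolled clusters that were bright ran from 5.07% for code 13 to 9.31% for code 0X, around 7.25% overall. Named clusters were bright more often, at 22.6% overall.

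Small codes stood apart. The code 0M, which holds the mitochondrial genes, had 12 unsymbolled clusters, and all 12 were bright, with a median level of 15.19. The codes of unplaced and unlocalised contigs also had high shares, with 35 of 68 for Un, 14 of 24 for 1_ and 7 of 17 for 4_. Of the clusters with 1 symbol, 8 of 8 for 0M, 6 of 13 for Un, 0 of 2 for 1_ and 0 of 1 for 4_ were bright. The high share of 0M was therefore not particular to unsymbolled clusters. Across all codes, 82 members had ids that name such a contig, and their median level was 12.20.

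**Figure D2:**
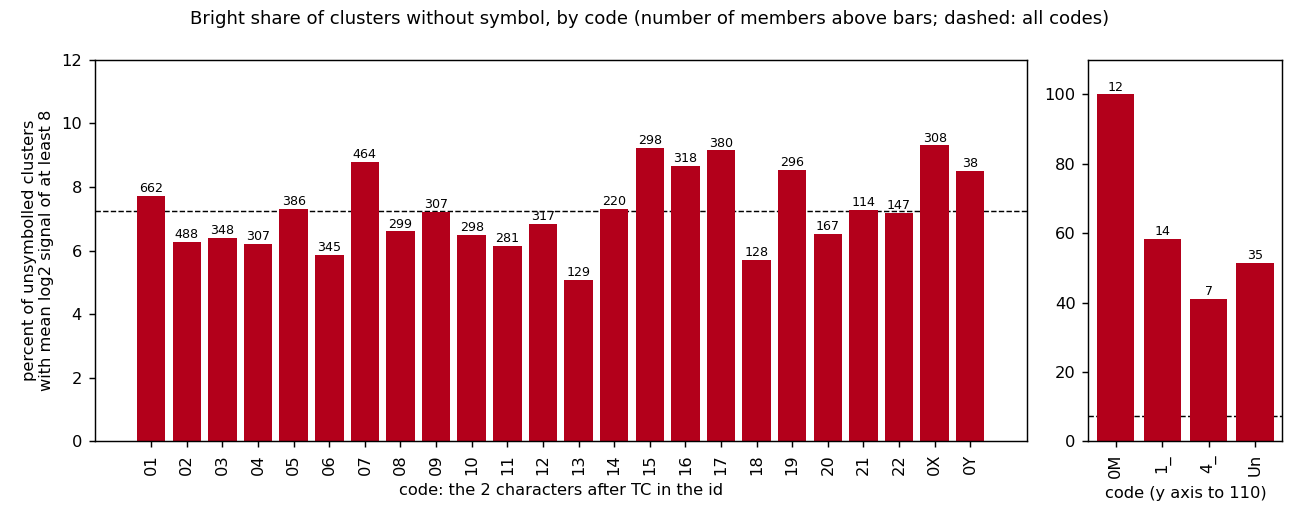
Percent of the unsymbolled clusters of each code with a mean log2 signal of at least 8 (y axis, bars from 0, separate scales in the panels), with the number of members above each bar and the share over all codes as a dashed line. Numbered, X and Y codes lie between 5.07% and 9.31%, whereas all 12 clusters of 0M were bright.

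The members are not independent measurements throughout. Their 7113 rows held 6993 distinct profiles over the 15 arrays. The largest set of identical rows had 27 members, all at the ceiling. Below the ceiling, 150 members fell into 65 sets with identical values on all 15 arrays, 53 of them pairs and the largest of 5. In 41 sets the members shared a code, and in 24 they did not. One member had the values of a named cluster.

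Such copies included contigs that hold ribosomal RNA genes, whose products form the core of the ribosome. The contigs GL000220 and KI270733 each carried a named 18S ribosomal RNA cluster, RNA18S5, at 19.93, and clusters of the 5.8S gene RNA5-8SN5 between 12.96 and 19.64. In 4 sets of members with identical values, 1 id lay on each contig. The brightest set held TC22_KI270733v1_random00006444 and TCUn_GL000220v100006443 together with TC2100007512, TC2100007515 and TC2100007517 of code 21, at 19.45. The sets at 11.25 and 10.04 each held 2 further ids of code 21, and only that at 10.83 was a pair of the contigs alone.

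Members on contigs were mostly lower after exposure to HD than in NEC cells, by small amounts. The 82 of them averaged 12.49 to 12.92 on the HD arrays, against 13.00 to 13.12 on the NEC arrays, which did not overlap, and 12.76 to 13.03 on the CA arrays, which overlapped with HD. The single member estimates were below 0 in 69 of 82, with a median HD minus NEC difference of -0.35, but none passed the adjusted p. The same estimate was below 0 in 4702 of all 7113 members.

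The mitochondrial genome is read as long RNAs from both strands, which are cut into messenger, transfer and ribosomal RNAs. Of the named clusters with code 0M, ND1, COX1, COX2, ND5 and CYTB, which encode subunits of the respiratory chain, stood at the ceiling of 19.93, as did the unsymbolled TC0M00006445. The other unsymbolled ones ranged from a mean of 8.87 in TC0M00006436 to 18.41 in TC0M00006453. ND2, ND3 and ND6, also respiratory chain subunits, lay at 14.97, 17.50 and 17.63.

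In TC0M00006451, the log2 signal was 15.11, 15.08 and 14.85 in HD, against 13.32, 13.28 and 12.87 in NEC. The CA arrays lay between them at 13.80, 14.18 and 13.91, LD at 13.74, 13.73 and 14.08 and MD at 14.27, 14.32 and 14.81. The HD arrays were above all others. The HD minus NEC difference was 1.85 ± 0.21 (SE; limma, Benjamini-Hochberg adjusted p = 0.0012), whereas HD minus CA was 1.05 (adjusted p = 0.13).

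In TC0M00006447, the HD arrays read 16.94, 17.29 and 17.12, against 15.43, 15.82 and 15.26 in NEC. The groups did not overlap, and the difference was 1.61 ± 0.23 (SE; limma adjusted p = 0.0055). Its id neighbour TC0M00006446 read 16.45, 17.03 and 16.62 in HD, against 15.22, 15.65 and 15.45 in NEC, a difference of 1.26 ± 0.21 (SE; limma adjusted p = 0.013). The pair followed each other over the 15 arrays (Pearson r = 0.95, across arrays that include the group differences), so they are not 2 separate observations. With the exposure plate as a block, TC0M00006451 and TC0M00006447 passed (adjusted p = 0.013 and 0.046) and TC0M00006446 did not (0.084). The other 9 members of the code did not pass in this contrast, with TC0M00006449 nearest to it at 1.15 (adjusted p = 0.068). The mean of the 12 was 15.49 to 15.57 on the HD arrays, against 14.85 to 15.06 in NEC and 14.93 to 15.47 in CA. The CA value of 15.47 came from the array of plate 5, and MD, all on plate 5, had 15.39 to 15.57.

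**Figure D3:**
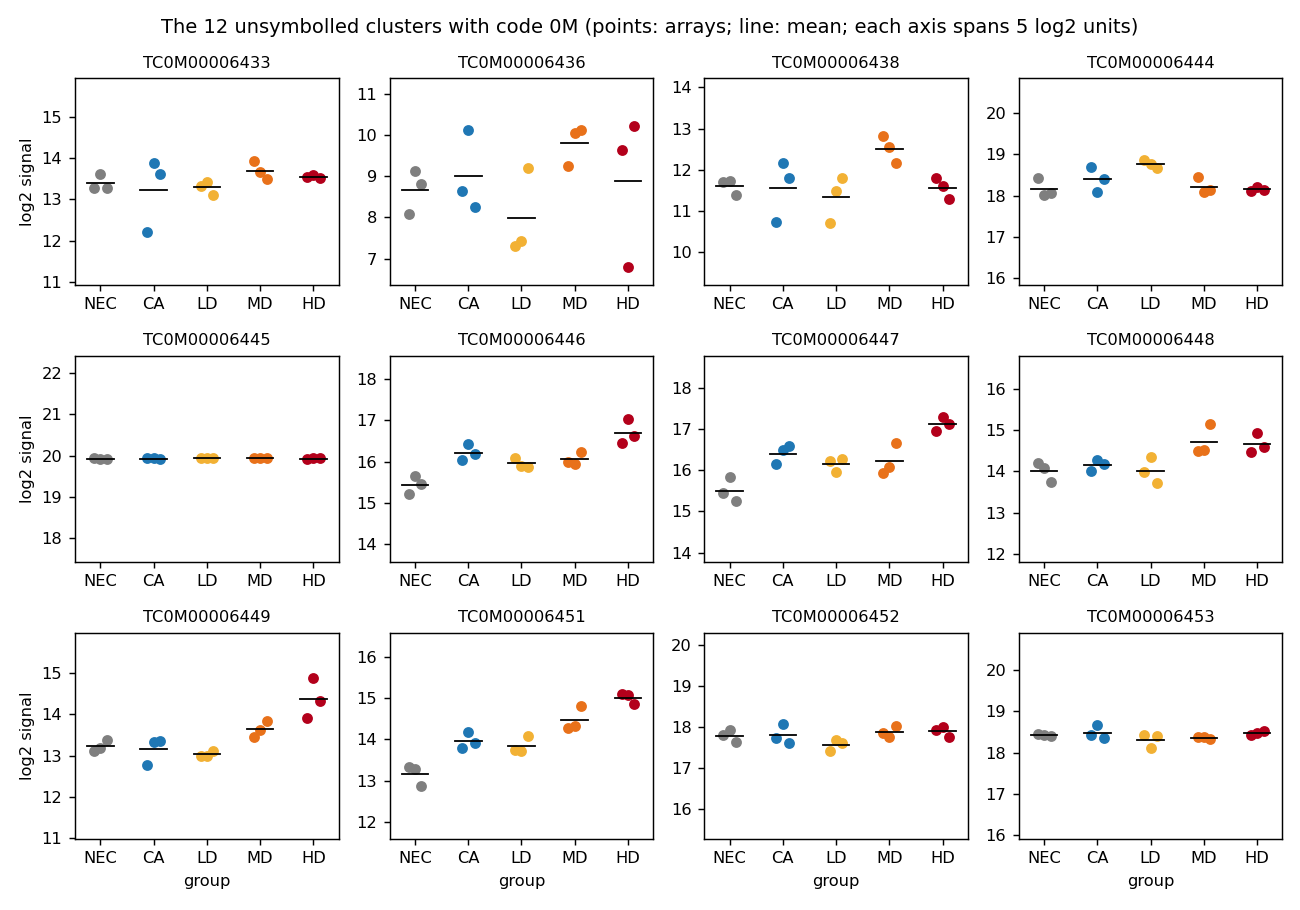
Log2 signal (y axis, each panel spanning 5 units) of the 12 unsymbolled clusters with code 0M in NEC, CA, LD, MD and HD (x axis), points for arrays and lines for means of 3. In TC0M00006446, TC0M00006447 and TC0M00006451 the HD points lie above all NEC points, while TC0M00006445 stays at 19.93 in every group.

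As a set, the members moved little and opposite to the named clusters. Their mean signal was 10.90 to 10.92 on the NEC arrays, 10.81 to 10.86 on CA, 10.80 to 10.94 on LD, 10.72 to 10.87 on MD and 10.65 to 10.86 on HD. The HD and CA ranges overlapped, and the HD mean was below the CA mean by less than the spread of the HD arrays. Without HD replicate 2, whose mean of 10.65 was the lowest, the HD minus CA difference was 0.03, against -0.04 with it. LD replicate 3 had the highest mean of the members (10.94) and the lowest mean of the bright named clusters (10.54). The median HD minus CA difference was -0.03 in members, 0.08 in the bright named clusters and -0.01 over all clusters. For HD minus NEC these medians were -0.11, 0.12 and -0.02. For LD minus CA they were 0.01, -0.09 and -0.03, so the 2 kinds of cluster lay on opposite sides of 0 there too, with the signs turned. The comparisons against CA share the same CA arrays. The signals are relative to each array's whole distribution, so a lower set mean cannot be told apart from a higher signal elsewhere on the array.

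The comparison of HD with CA addresses what the highest vapour concentration changed beyond the air flow. In all, 7 members passed an adjusted p of 0.05, 2 higher and 5 lower in HD. The HD and CA arrays did not overlap in 12.0% of the members and 10.8% of all clusters. Called members were named only if they did not overlap. Over all clusters, 0.0223% passed higher and 0.0215% lower, against 0.0281% and 0.0703% of the members. In the bright named clusters the shares were larger than in the members, at 0.137% higher and 0.249% lower. The named clusters passed the same brightness threshold but were not matched to the members in level, with a median of 10.23 against 9.75. At the study's criteria, an unadjusted p of 0.05 and a fold above 2, 40 members were higher (0.562%, against 0.42% of all clusters) and 68 lower (0.956%, against 0.401%). At these criteria 1.6% of the bright named clusters were higher and 0.87% lower.

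TC0600011380 had 9.14, 9.23 and 9.35 in HD, against 8.0, 8.03 and 7.93 in CA. The MD arrays lay between at 8.32, 8.36 and 8.82, whereas LD, at 7.76, 7.85 and 7.75, lay below CA. It rose by 1.25 ± 0.18 (SE; 2.38-fold; limma adjusted p = 0.027), and HD was 1.31 above the CA array of its own plate. The bright named clusters with the most similar pattern over the 15 arrays were TUBB (r = 0.96), a beta tubulin of microtubules, SQSTM1 (r = 0.94), which codes for the autophagy receptor p62, and TUBA4A (r = 0.94), an alpha tubulin. These named clusters were not called in this contrast (adjusted p = 0.17, 0.14 and 0.27).

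TC2000007204 had 10.69, 11.41 and 11.34 in HD, against 8.05, 9.00 and 9.77 in CA. CA scattered widely, but the groups did not overlap, and the rise was 2.21 ± 0.37 (SE; 4.62-fold; limma adjusted p = 0.047). MD was as high, at 11.06, 11.27 and 11.07, and LD lay at 10.06, 10.24 and 10.26. On plate 6 alone, HD was 1.38 above the CA array. The NEC arrays, at 8.91, 10.28 and 9.39, also lay below HD, though that difference did not pass (1.62, adjusted p = 0.11).

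TC0100006730 was lower in HD, at 7.06, 7.06 and 7.10, against 8.51, 8.38 and 8.47 in CA. Both groups were tight, and HD lay below every other array. The fall was -1.38 ± 0.21 (SE; 2.60-fold; limma adjusted p = 0.031), with -1.40 within plate 6. The most similar named clusters were SLC46A3 (r = 0.91), a lysosomal transporter, MUC13 (r = 0.88), a membrane mucin, and TM4SF20 (r = 0.88), a membrane protein of the transmembrane 4 family. SLC46A3 and TM4SF20 were lower in HD too (-1.32 and -1.39, limma adjusted p = 0.043 and 0.031).

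TC0400009065 had 13.93, 13.45 and 13.65 in HD, against 14.93, 15.33 and 15.72 in CA. The groups did not overlap, and the fall was -1.65 ± 0.26 (SE; 3.14-fold; limma adjusted p = 0.031). LD, at 14.44, 14.31 and 13.84, and MD, at 14.39, 14.13 and 14.24, also lay below CA. Its pattern was most like those of FGG (r = 0.96) and FGB (r = 0.95), the gamma and beta chains of fibrinogen, the clotting protein made mainly by the liver, followed by CPS1 (r = 0.94), the first enzyme of the urea cycle. FGG was lower in HD (-1.97, limma adjusted p = 0.031), with a CA mean of 19.46 near the ceiling, and FGB had -1.66 without passing (adjusted p = 0.074). The id of the FGB cluster is 1 below that of TC0400009065.

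TC0100012740 had 12.74, 12.42 and 12.72 in HD, against 14.69, 13.88 and 14.23 in CA. MD, at 13.68, 12.99 and 12.80, lay between, and LD, at 14.19, 14.21 and 14.25, was level with CA. The fall was -1.64 ± 0.26 (SE; 3.11-fold; limma adjusted p = 0.032). Its neighbour by id, TC0100012741, followed it over the arrays (r = 0.94) but did not pass in this contrast (-1.51, adjusted p = 0.33). The most similar named clusters were CATSPERB (r = 0.97), a subunit of the sperm calcium channel complex, TC2N (r = 0.93), a protein with C2 domains, and PDE10A (r = 0.93), a cyclic nucleotide phosphodiesterase.

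TC0200010714 had 8.38, 8.08 and 7.70 in HD, against 9.82, 9.25 and 9.64 in CA, and its group means fell in order through LD and MD. The fall was -1.52 ± 0.24 (SE; 2.86-fold; limma adjusted p = 0.036). CATSPERB (r = 0.90), PDE3A (r = 0.89), another cyclic nucleotide phosphodiesterase, and FN1 (r = 0.89), the matrix protein fibronectin, were its most similar named clusters. All 3 were lower in HD than in CA, at -1.54, -1.58 and -3.05 (limma adjusted p = 0.016, 0.014 and 0.0043).

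TC0700013459 had 7.41, 7.52 and 7.89 in HD, against 9.01, 9.17 and 9.79 in CA. The groups did not overlap, and the fall was -1.72 ± 0.28 (SE; 3.30-fold; limma adjusted p = 0.043), with -2.19 within plate 6. F5 (r = 0.88), coagulation factor V, SLC12A2 (r = 0.87), a sodium, potassium and chloride cotransporter, and RPL7P49 (r = 0.87), a ribosomal protein pseudogene, followed it most closely. F5 passed in the same direction (-1.57, adjusted p = 0.043). The named clusters of similar pattern were found by searching 8044 clusters for members already chosen for their HD difference, so the correlations describe these arrays and carry no test.

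**Figure D4:**
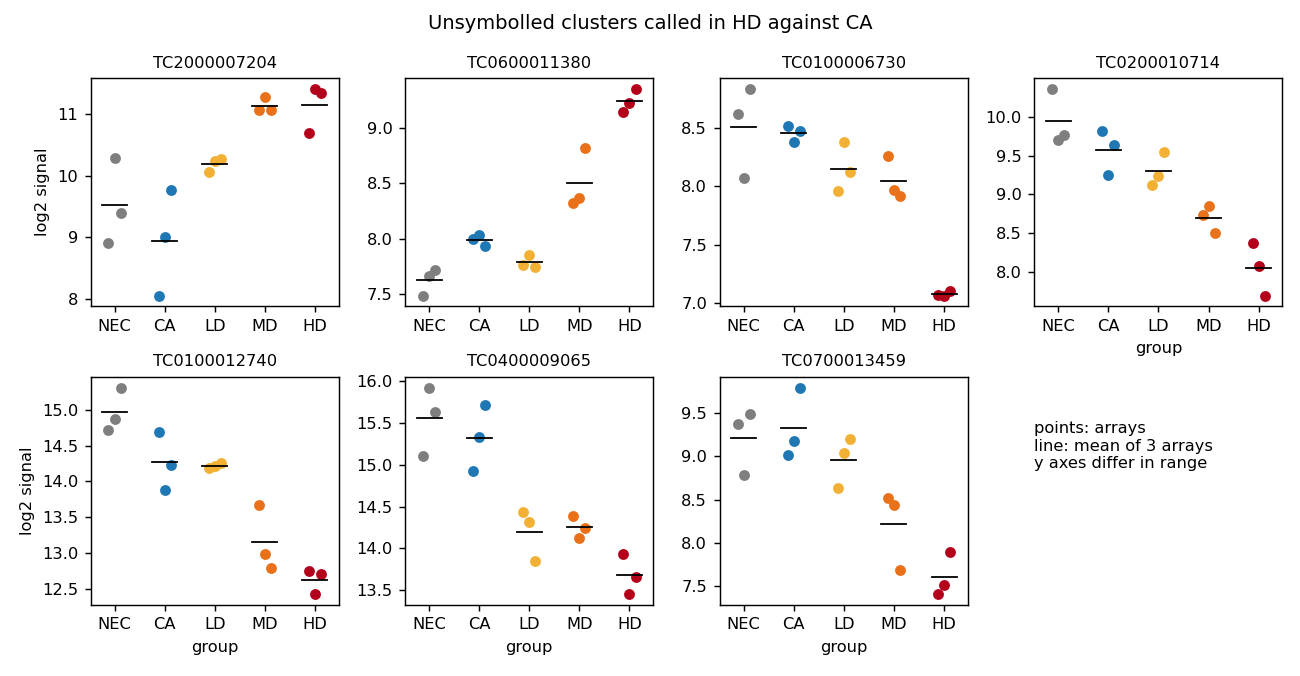
Log2 signal (y axis, panels differ in range) of the 7 members called in HD against CA, by group (x axis: NEC, CA, LD, MD, HD), points for arrays and lines for means of 3. In TC2000007204 and TC0600011380 the HD points lie above all CA points, and in the other 5 panels they lie below.

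With the exposure plate as a block, all 7 kept their sign and had an unadjusted p below 0.05, but none passed the adjustment (adjusted p 0.051 to 0.17). Leaving out any 1 array of HD or CA left none of the members called, except for TC2000007204 without CA replicate 3.

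MD and LD were each compared with CA to see whether lower concentrations changed the members. Neither comparison had a call by limma, among members or over all clusters (0% each), and the trend and robust setting of limma called no member in either and 1 cluster over all in MD minus CA. At an unadjusted p below 0.05 there were 567 members for MD minus CA (7.97%, against 6.17% of all clusters) and 400 for LD minus CA (5.62%, against 6.34%). With a fold above 2 in addition, 18 members were higher in MD (0.253%, against 0.221% of all clusters) and 46 lower (0.647%, against 0.306%). For LD, 26 were higher (0.366%, against 0.294%) and 7 lower (0.0984%, against 0.233%). Among the bright named clusters, 0.472% were higher and 0.448% lower in MD, and 0.0746% were higher and 0.323% lower in LD.

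The largest MD minus CA differences, none of which passed, were 2.19 in TC2000007204, 1.56 in TC1800006897 and 1.49 in TC0600010054, and -1.50 in TC0800011882, -1.50 in TC0800011318 and -1.29 in TC1200007042 (limma adjusted p 0.34 to 0.67). TC0800011318 had 7.49, 7.43 and 7.97 in MD, against 8.98, 9.10 and 9.30 in CA, without overlap. MD and CA did not overlap in 13.2% of the members and 11.4% of all clusters. For LD minus CA they were 1.40 in TC0500011456, 1.37 in TC1000008645 and 1.36 in TC1900010974, and -1.16 in TC0200015608, -1.48 in TC0300008077 and -1.89 in TC0500007918 (limma adjusted p 0.65 to 0.73).

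A pair of these rested on a split within LD. TC0500007918 had 13.35, 12.92 and 16.88 in LD, against 16.01, 16.53 and 16.28 in CA. TC0300008077 had 13.71, 14.28 and 16.94 in LD, against 16.11, 16.83 and 16.44 in CA. In both, LD replicates 1 and 2 were below every other array and LD replicate 3 was not. Without LD replicate 3, both were called, at -3.14 and -2.46 (limma adjusted p = 0.047 each).

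CA was compared with NEC to see the part of the air flow itself. No member passed in limma, nor did any cluster (0%), and 398 members had an unadjusted p below 0.05 (5.60%, against 5.43% of all clusters). With a fold above 2, 3 members were higher in CA (0.0422%, against 0.179% of all clusters) and 19 lower (0.267%, against 0.262%). The bright named clusters had 0.124% higher and 0.0497% lower. The largest differences, none of which passed, were 1.06 in TC0900012047, 1.05 in TC1200007552 and 1.03 in TC2000009517, and -1.21 in TC0500010551, -1.35 in TC0500011038 and -1.47 in TC0800011252 (limma adjusted p 0.75 to 0.88). TC0500011038 had 8.24, 8.85 and 8.30 in CA, against 9.57, 10.42 and 9.44 in NEC, and the groups did not overlap. The same held for 10.7% of the members and 9.74% of all clusters.

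HD against NEC joins the effect of the vapour with that of the flow. It had the most calls, with 64 members, 26 higher and 38 lower in HD. Over all clusters 0.134% passed higher and 0.0965% lower, against 0.366% and 0.534% of the members. In the bright named clusters the shares were 1.12% higher and 0.46% lower. In either direction, 1.58% of these were called, against 0.9% of the members. With an unadjusted p below 0.05 and a fold above 2, 70 members were higher (0.984%, against 0.607%) and 171 lower (2.40%, against 0.652%). By that rule 3.64% of the bright named clusters were higher and 1.22% lower. Called differences had a median size of 1.63 log2 units and ran from 0.92 to 2.84 in size. The HD and NEC arrays did not overlap in 23.5% of the members and 13.2% of all clusters. The CA mean lay between the NEC and HD means in 63 of the 64, and in 25 all 5 group means were in order from NEC through CA, LD and MD to HD. The 64 were chosen for a large HD minus NEC difference, so a CA mean in between is close to given by that choice. These counts were not set against uncalled members, and a graded response was not tested by them. Of the 7 members called against CA, 6 were called here. TC2000007204 was not, and both comparisons use the same HD arrays. With the exposure plate as a block, 20 members passed, 4 higher and 16 lower, 18 of them among the 64, and without any 1 array of HD or NEC 19 to 35 passed. The balance of directions was not stable, since 13 were higher and 8 lower in a fit of these 2 groups alone, and 16 higher and 9 lower without NEC replicate 3.

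**Figure D5:**
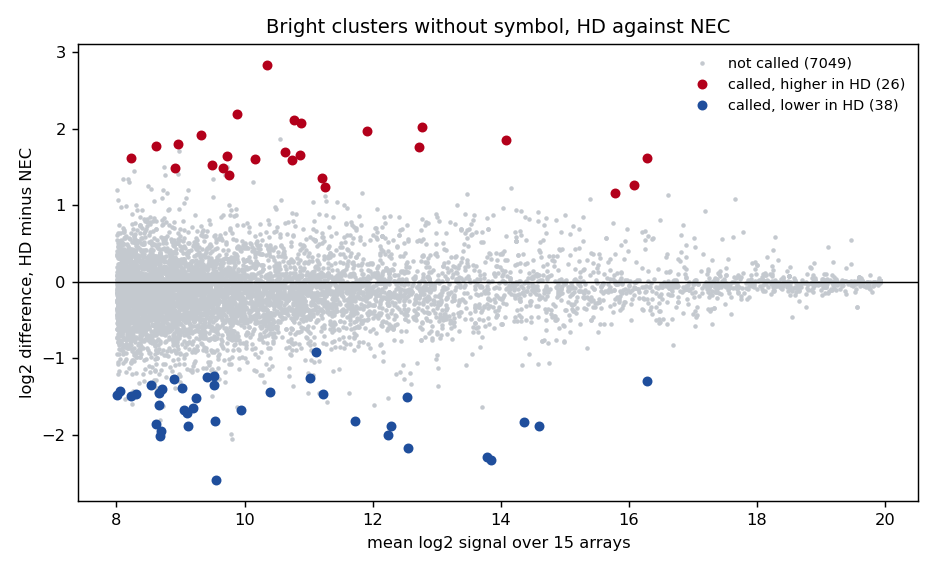
Log2 difference of HD minus NEC (y axis) against the mean log2 signal over 15 arrays (x axis) for the 7113 members, with the 26 called higher in HD in red, the 38 called lower in blue and the others in grey. The differences called run from -2.59 to 2.84, and the scatter narrows towards the ceiling on the right.

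The largest rise was that of TC1800006897, with 11.29, 11.95 and 11.84 in HD, against 8.08, 9.16 and 9.31 in NEC. Its CA arrays, at 9.01, 10.24 and 10.13, and LD arrays, at 10.03, 10.34 and 9.86, lay between, and MD, at 10.84, 11.29 and 11.91, reached the HD range. The difference was 2.84 ± 0.37 (SE; 7.15-fold; limma adjusted p = 0.0037). The other rises among the 10 largest were 2.20 in TC0900012047, 2.12 in TC1900010974, 2.07 in TC1200007552, 2.02 in TC0100015706, 1.97 in TC0100009873, 1.91 in TC1100011933, 1.85 in TC0M00006451, 1.81 in TC0600007376 and 1.77 in TC1100013087. Their adjusted p ran from 0.0012 to 0.034. With the exposure plate as a block, TC1800006897 and TC0M00006451 still passed (adjusted p = 0.016 and 0.013), and the other 8 of these 10 did not (0.061 to 0.16).

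The largest fall was that of TC1900008760, with 8.21, 7.31 and 8.43 in HD, against 9.79, 10.75 and 11.20 in NEC. Its difference was -2.59 ± 0.46 (SE; 6.04-fold; limma adjusted p = 0.025). The other falls among the 10 largest were -2.34 in TC0100012740, -2.29 in TC0100012741, -2.17 in TC1400009989, -2.02 in TC1200011853, -2.0 in TC1200007039, -1.95 in TC0300009000, -1.89 in TC0200010714, and -1.88 in TC0400009065 and in TC1400009990. Their adjusted p ran from 0.0011 to 0.048. With the block, 6 of these 10 passed, and TC1900008760, TC0300009000, TC1200007039 and TC1400009990 did not (adjusted p 0.064 to 0.089).

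Some of the called members had successive ids. TC0100012740 and TC0100012741 (r = 0.94), TC1400009989 and TC1400009990 (r = 0.94), and TC0700013517 and TC0700013518 (r = 0.77) were pairs of successive ids that moved in the same direction. TC1200007038, TC1200007039, TC1200007040 and TC1200007042 formed a run of 4, all lower in HD (-1.25, -2.0, -1.82 and -1.67). Counting the 0M pair, 12 of the 64 belonged to such a pair or run, so the 64 are not 64 separate observations.

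Ids that follow each other mostly name neighbouring loci: of 11759 pairs of named clusters with successive ids, 91.3% stood in ascending order on the chromosome. The calls over all comparisons covered 71 members, and 58 of these had a named cluster within 3 ids. An id next to a gene does not make the member part of it. These neighbours were looked up after the calls were known.

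Several neighbours moved with the member. TC1600007962, which was 1.60 higher in HD than in NEC (limma adjusted p = 0.035), lies by id between MT1JP (r = 0.89) and MT1DP (r = 0.85), pseudogenes of the metallothionein family, whose proteins bind zinc and copper. MT1JP was 1.47 higher in HD than in NEC (limma adjusted p = 0.0071), and MT1DP had a difference of 1.26 without passing (adjusted p = 0.20). The other metallothionein clusters within 3 ids, MT1M, MT1E and MT1F (r = 0.49, 0.66 and 0.76), had 0.47, 0.70 and 1.02 and did not pass. TC1600007962 itself had 11.03, 11.42 and 11.05 in HD, against 9.37, 9.57 and 9.75 in NEC, and it did not pass with the plate as a block (adjusted p = 0.27).

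On code 20, TC2000007203 and TC2000007204 follow the id of ACSS2, the enzyme that makes acetyl-CoA from acetate in the cytosol and nucleus. ACSS2 was 2.56 higher in HD than in NEC (limma adjusted p = 0.0085) and 2.27 higher than in CA (adjusted p = 0.058). Its r over the arrays was 0.84 with TC2000007203 and 0.91 with TC2000007204.

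Several members that were higher in HD than in NEC have histone genes or pseudogenes beside them by id; histones are the proteins that package DNA. TC0100015710 is next to H2AC21 (r = 0.87), TC0100015700 is 2 ids from H3C13 (r = 0.76), and TC0100015706 is 2 ids from H2BC20P (r = 0.69). The HD minus NEC differences of these named clusters were 1.32, 1.03 and 0.74, and none of the 3 passed (limma adjusted p 0.17 to 0.39). TC0600007376 has 5 histone clusters within 3 ids, namely H3C10 (r = 0.39), H2BC14 (r = 0.65), H2AC13 (r = 0.69), H4C11 (r = 0.75) and the pseudogene H4C10P (r = -0.25). Their differences were 0.34, 0.84, 0.80, 0.70 and -0.06, and none passed (limma adjusted p 0.44 to 0.97).

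Among the members that were lower, the run of TC1200007038 to TC1200007042 follows the id of PDE3A, which was -1.81 in HD minus NEC (limma adjusted p = 0.0012) and had r between 0.74 and 0.83 with TC1200007038, TC1200007039 and TC1200007040. TC0600014368 lies between a PDE10A cluster (r = 0.89) and LINC00473 (r = 0.82), a long non-coding RNA. That PDE10A cluster was -2.09 and LINC00473 -1.32 in HD minus NEC (limma adjusted p = 0.0040 and 0.050), and a further PDE10A cluster 2 ids away had -0.87 without passing (adjusted p = 0.22). TC0600014368 itself was -1.84 (limma adjusted p = 0.0043).

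This pattern was not general. Over the 58 called members and their 118 named neighbours within 3 ids, at any brightness, the median r was 0.33, and 10 members had a neighbour with r above 0.8. For 1162 of the 7113 members, a pair with a bright named cluster at the next id could be formed. Over these 1243 pairs the median r was 0.04, and 16 pairs (1.29%) exceeded 0.8. At a distance of 50 ids the median was -0.02, and 2 of 790 pairs exceeded 0.8. Most members with a bright named cluster at the next id therefore did not follow it over these arrays. The other members had no such pair. A called member was chosen for its group difference, so its r is high wherever the neighbour shares that difference.

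HD against LD asked whether the concentrations differ in the members, on different plates. By limma, 5 members passed, 2 higher and 3 lower in HD (0.0281% and 0.0422%). The background over all clusters was 0.00742% higher and 0.00816% lower, and the bright named clusters had 0.0124% and 0.0497%. With an unadjusted p below 0.05 and a fold above 2, 54 were higher (0.759%, against 0.485%) and 165 lower (2.32%, against 0.602%). The bright named clusters had 1.82% higher and 0.435% lower. LD replicate 3, in which the members were highest as a set, belongs to this contrast. Without it, limma again called 5 members, but 4 were higher and 1 was lower, and the calls shared 3 members with those above. TC0300008077 and TC0500007918 came in (2.47 and 2.85, limma adjusted p = 0.030 and 0.036), while TC0700012226 and TC0X00010074 no longer passed (0.11 and 0.079).

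TC1600008992 had 8.05, 8.37 and 8.84 in HD, against 11.03, 12.12 and 10.53 in LD, a difference of -2.81 ± 0.41 (SE; 6.99-fold; limma adjusted p = 0.035). Its CA mean of 9.87 lay between. TC1100013087 had 9.54, 9.38 and 10.22 in HD, against 7.65, 8.01 and 7.70 in LD, and rose by 1.93 ± 0.25 (SE; limma adjusted p = 0.020). In both, LD and HD lay on opposite sides of CA.

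TC0600011380, described above for CA, was 1.45 higher in HD than in LD (limma adjusted p = 0.020). TC0700012226 had 8.10, 8.22 and 7.99 in HD, against 9.56, 10.04 and 9.88 in LD (-1.72 ± 0.27, SE; limma adjusted p = 0.044). TC0X00010074 had 8.91, 8.66 and 9.03 in HD, against 10.21, 10.55 and 10.21 in LD (-1.46 ± 0.22, SE; limma adjusted p = 0.037). None of the 5 passed with the exposure plate as a block (adjusted p 0.38 to 0.44), a fit in which HD and LD are linked only through the controls of their plates.

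A straight line on the concentration, fitted to the 12 arrays that exclude NEC, had 16 members past an adjusted p of 0.05, 8 rising and 8 falling, or 0.112% of the members in each direction. Over all clusters 0.0482% rose and 0.0282% fell, and of the bright named clusters 0.373% rose and 0.236% fell. In 10 of the 16, the 4 group means were in order, and 12 of the 16 were also called in HD against NEC. The 16 were chosen on their slope, so these counts carry no test. The steepest rises per ppm were 0.0269 ± 0.0030 in TC2000007203 (SE; limma adjusted p = 0.0070), 0.0246 in TC1800006897, 0.0211 in TC1200011206, 0.0193 in TC0100009873 and 0.0178 in TC0100015700. TC2000007203 had 9.50, 10.09 and 9.39 in CA, 10.14, 9.69 and 10.76 in LD, 10.98, 11.10 and 11.12 in MD and 12.01, 11.65 and 11.95 in HD.

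The steepest falls per ppm were -0.0311 ± 0.0054 in TC0800011882 (SE; limma adjusted p = 0.044), -0.0218 in TC0100012740 and TC1400009989, -0.0212 in TC0700013459 and -0.0188 in TC0200010714. TC0800011882 had 10.82, 9.89 and 10.90 in CA, 10.65, 11.38 and 10.27 in LD, 10.09, 8.74 and 8.28 in MD and 8.50, 7.88 and 8.57 in HD, so LD was not below CA and the MD arrays spread widely. With the plate as a block, 2 members passed, 1 of them among the 16.

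Classes of RNA that do have symbols gave a scale for these levels. The snoRNA class took symbols that start with SNORD, SNORA or SCARNA, and many such RNAs guide the modification of ribosomal RNA. The U RNA class took symbols that start with RNU or RNVU and is not limited to spliceosomal RNAs. Of the named clusters, 92 of 541 snoRNA, 241 of 1755 U RNA and 86 of 502 ribosomal RNA clusters were bright. Pseudogenes are counted in these classes. Bright too were 106 of 1531 microRNA clusters and 41 of 963 LINC clusters. Bright clusters also made up 222 of 1008 for Y, vault, 7SK and 7SL RNA and 319 of 1076 for symbols that start with RPL or RPS. These 2 classes also count pseudogenes, and the RPL and RPS class is therefore not a count of ribosomal protein genes. The median level of the bright ones ran from 9.22 for LINC to 12.16 for ribosomal RNA. In HD against NEC, limma called 3 bright snoRNA, 8 bright U RNA and 2 bright RPL or RPS clusters, all higher in HD. It called 1 LINC cluster in each direction and none of the other classes. In this contrast 0.134% of all clusters were called higher and 0.0965% lower, and 1.12% and 0.46% of the bright named clusters. Whether a class differed from these shares was not tested. The class medians of HD minus NEC among the bright clusters were 0.54 for U RNA, 0.52 for snoRNA and 0.41 for ribosomal RNA. They were 0.28 for RPL and RPS symbols and 0.15 for Y, vault, 7SK and 7SL RNA. Those of microRNA (-0.15) and LINC (-0.21) were below 0, as was that of the members (-0.11).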

How the data were processed

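RNA of 15 pools of A549 cells in 5 groups was hybridised to Human Clariom D arrays. The deposited values are log2 signals per transcript cluster, which the authors obtained with the Transcriptome Analysis Console 4.0 by the robust multi-array average. This method sets the arrays to one common distribution, so values are relative within an array, and bright clusters are compressed near the ceiling. Of 138745 deposited rows, 2995 control rows and 1002 rows with unmapped ids were left out, and 134748 were tested. Symbols came from the array's probe annotation. Gene positions used to check the order of ids came from RefSeq.

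A linear model with 5 groups was fitted to the 15 arrays with limma 3.58.1 (lmFit, contrasts.fit, eBayes) in R 4.3.3, with 10 residual and 6.30 prior degrees of freedom. The slope on concentration was fitted to 12 arrays. The tests were two-sided, with Benjamini-Hochberg adjustment over 134748 clusters and a call below 0.05. Files were read with data.table (version 1.17.8), and summaries and plots were made with Python 3.11.15, pandas 2.3.3, numpy 2.4.6 and matplotlib 3.10.9. The code was tested on simulated data.

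The members, the lists and the tests were chosen with earlier results of these data known. Named members are those with the largest called rises and falls of each comparison (10 of each for HD against CA and HD against NEC, 5 of each for the others), the 3 largest of each where none was called, the brightest, those with the widest and narrowest group means and those at the threshold. In comparisons of 2 groups, called members entered these lists only if the arrays of the groups did not overlap. Members of code 0M and of contigs with ribosomal RNA genes, and named clusters with neighbouring ids, were picked after their values were seen. A permutation test of the members' mean signal had been planned and is not given, since the members were chosen on that signal. Alternatives were another threshold, scaling, variance prior, set of arrays or set of adjusted clusters, the exposure plate as a block, and leaving out each array.

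CA and NEC arrays of one plate deviated together only weakly over the members (r = 0.18, 0.27 and 0.13 for plates 1, 5 and 6). The members are not independent, so these values describe the arrays and carry no test. The pairing of these controls comes from the exposure plate in the labels, and each plate holds 1 dose.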

Additional observations from a re-analysis of the deposited data

Results flagged for a closer look

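The effects of HD and LD, each taken against CA, differed by limma's test of HD minus LD in 5 members, which flagged these results. TC0600011380 (1.45) and TC1100013087 (1.93) were higher in HD. TC0700012226 (-1.72), TC0X00010074 (-1.46) and TC1600008992 (-2.81) were lower in HD. The background of calls in this contrast was 0.00742% higher and 0.00816% lower. HD and LD came from different exposure plates, so the concentration and the plate cannot be told apart without the plates' controls. With the exposure plate as a block none of the 5 passed, although all 5 kept their sign.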

How the results depend on the processing

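The counts of members called depended on the processing. For HD minus CA, 7 were called, against 0 with the exposure plate as replicate block, 0 with only the arrays of these groups, 15 with the trend and robust prior, 39 with p-values adjusted over bright clusters alone and 4 at a threshold of 9, and 0 to 1 when 1 array was left out. For HD minus NEC, 64 were called, against 20 with the block, 21 with only these groups and 198 adjusted over bright clusters, and 19 to 35 with 1 array left out. For HD minus LD, 5 were called, against 0 with the plate block, 0 with only these groups, 10 with centred arrays, 19 with the trend and robust prior, 75 adjusted over bright clusters, 3 at a threshold of 9 and 0 to 5 with 1 array left out. For the slope, 16 were called, against 2 with the block, 25 with the trend and robust prior, 73 adjusted over bright clusters and 1 to 14 with 1 array left out. LD minus CA had 0 to 2 calls with 1 array left out, and MD minus CA and CA minus NEC had 0 in every setting run. The cause of these shifts was not tested. The members numbered 11551 at a threshold of 7 and 4636 at 9. The HD minus CA difference of their mean signal was -0.04 and lay between -0.080 and 0.026 with 1 array left out, with the sign turned without HD replicate 2. For single named members that were called, the call was kept in 8 values and lost in 55 for HD minus CA, kept in 116 and lost in 64 for HD minus NEC, kept in 9 and lost in 41 for HD minus LD, and kept in 67 and lost in 73 for the slope. Those named where none was called stayed uncalled in 54 values for MD minus CA, 54 for CA minus NEC and 52 for LD minus CA, where 2 gained a call, and 0 values of any comparison changed sign. These tallies leave out the trend and robust prior and the adjustment over bright clusters. With either of these, all 7 calls of HD minus CA, 64 of HD minus NEC, 5 of HD minus LD and 16 of the slope were kept. The labels also give HD and LD the same replicate numbers, but arrays of one number had r of mixed sign (-0.11, 0.17 and -0.06 for numbers 1, 2 and 3). With that number as replicate block 0 were called. Near the threshold the signal stands little above the upper background, and near the ceiling changes are compressed.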

Other observations

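Rows whose ids mark them as unmapped were not part of any comparison. There were 1002 of them, their median of the mean log2 signal was 5.23, and 170 (17.0%) had a mean of at least 8.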
